A study of Drosophila melanogaster with 3 samples.

Results

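The Mediator and general transcription factor genes of the fly were taken as the protein-coding genes of the release 6 annotation whose symbols start with MED or Taf and a digit, or with TfII. This rule gave 49 of 13945 protein-coding genes on the 6 main chromosome arms, namely 25 MED genes, 15 Taf genes and 9 TfII genes, and it used no measured value. Each was scored by the strongest entry of the deposited dm6 lists whose summit, the point of highest signal, was at most 1000 bp away from a start site of the gene. The lists come from chromatin immunoprecipitation with sequencing (ChIP-seq) of a Deadpan-eGFP fusion protein, made by an eGFP exon placed in an intron of dpn and precipitated with an antibody to GFP, although the antibody entry of the labels reads dpn. There is 1 group, the strain dpn-MiMIC-GFP, with 3 biological replicates of whole embryos of both sexes aged 0 to 24 hours. By its name the strain derives from MiMIC, an exchangeable transposon used to tag genes at their own locus. All 3 replicates carry it, no library of another genotype was analysed here, and all embryonic tissues are mixed, so the tissue of a bound site is not known. Neither the depth of a library nor a read count per peak is held by lists of this kind.

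Transcription of protein-coding genes by RNA polymerase II starts with the assembly of general factors on the core promoter. TFIID, made of the TATA-binding protein and the TBP-associated factors (Tafs), recognises the promoter, TFIIA and TFIIB steady it there, TFIIF brings the polymerase, and TFIIE and TFIIH help to open the DNA. Mediator, with head, middle and tail modules and a separable kinase module, passes signals from DNA-bound regulators to this machinery, while TFIIS acts later, on polymerase that has stalled. Deadpan is a repressor of the Hes family of basic helix-loop-helix proteins and is best known from neural stem cells. Most of this machinery is used by nearly every cell, while some of its genes have homologues with narrower use, such as those of the testis.

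Windows of 101 bp centred on the summits are shown for 7 bound members, namely the 5 with the strongest peaks (MED30, MED27, MED15, Taf4 and TfIIA-S) and, with MED17 and TfIIS, further examples of the hexamer TATCGA, which lies within the binding site of DREF, a promoter factor of growth and replication genes. The first 3 windows hold TATCGA on either strand, MED27 being both among the strongest and a holder of the hexamer, and the other 4 do not. Letters follow the NCBI sequence of release 6 (dm6), 5' to 3' on the plus strand, and capitals mark TATCGA and, in the last window, CACGCG, a hexamer known to be bound by Hes proteins.
MED27, chr3R:5654923-5655023, plus strand: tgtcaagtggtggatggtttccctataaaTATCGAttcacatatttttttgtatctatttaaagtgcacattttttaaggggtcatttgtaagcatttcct
MED17, chr3R:18188972-18189072, plus strand: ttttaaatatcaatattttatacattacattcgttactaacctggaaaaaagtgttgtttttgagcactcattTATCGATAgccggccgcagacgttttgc
TfIIS, chr2L:15061547-15061647, plus strand: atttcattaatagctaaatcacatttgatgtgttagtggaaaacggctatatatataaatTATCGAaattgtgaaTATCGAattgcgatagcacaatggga
MED30, chr3L:654240-654340, plus strand: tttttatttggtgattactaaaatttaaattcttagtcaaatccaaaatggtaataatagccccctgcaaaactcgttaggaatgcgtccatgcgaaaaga
MED15, chr2L:472388-472488, plus strand: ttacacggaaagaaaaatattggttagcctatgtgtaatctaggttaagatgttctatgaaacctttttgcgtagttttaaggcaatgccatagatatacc
Taf4, chr3L:16113617-16113717, plus strand: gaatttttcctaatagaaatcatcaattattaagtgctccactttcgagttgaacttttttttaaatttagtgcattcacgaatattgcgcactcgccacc
TfIIA-S, chr3R:23891066-23891166, plus strand: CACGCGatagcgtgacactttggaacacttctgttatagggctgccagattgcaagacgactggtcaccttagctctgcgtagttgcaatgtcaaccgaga
In the MED17 window the capitals are 2 overlapping matches, one on each strand, and in the TfIIS window they are 2 separate matches.

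The first comparison asked how many of these genes had a peak on the list thresholded by irreproducible discovery rate (IDR), a method that keeps peaks with stable ranks between replicates. Such a peak was present within 1000 bp of a start site for 21 of the 49 genes (42.9%) and is called bound below. Of all protein-coding genes, 27.9% were bound by the same rule. The TfII genes were bound in 6 of 9 cases (66.7%), the MED genes in 10 of 25 (40.0%) and the Taf genes in 5 of 15 (33.3%), the last being near the share of all genes. The 21 bound genes had 21 different peaks. A further 25 members had only entries of the pooled list below the threshold and 3 had none, so that 46 of 49 (93.9%) had a pooled entry of some strength, against 63.1% of all genes. The median rank in the pooled list of 30000 entries was 6865 for the 49 members and 15200 for all protein-coding genes, with genes without an entry placed last. Near the top, 5 of 49 members (10.2%) ranked among the first 500 pooled entries, where 3.86% of all genes had an entry, and 8 (16.3%) among the first 1000, where 7.02% did. No test was made of these shares, since the genes were chosen with earlier results of these data known and genes are not replicates.

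Start sites of other genes lay close to most members, and the count of bound genes has to be read beside that. Another annotated gene, non-coding genes and transposon copies included, started within 1000 bp of 38 of the 49 members (77.6%), against 51.4% of all protein-coding genes. Of these 38 members 19 were bound (50%), against 39.7% of all genes with such a neighbour. Of the 11 members without one, 2 were bound (18.2%), against 15.4% of all genes without one. The 2 were TfIIEalpha and TfIIEbeta, with weak peaks at pooled ranks 4372 and 4512. Within each of these classes, the share over all members together was therefore closer to the background than without this division. This did not hold for each family. The TfII genes were bound in 4 of 6 cases with a neighbour and 2 of 3 without (66.7% in both). The MED genes were bound in 10 of 20 (50%) and 0 of 5, and the Taf genes in 5 of 12 (41.7%) and 0 of 3. For 16 of the 21 bound members the start site of another protein-coding gene also lay within 1000 bp of the summit, and which gene such a peak belongs to cannot be told apart. A start site of the member itself was the nearest coding one to the summit for 12 of the 21 (57.1%), against 68.6% of all bound genes. When a peak was given only to the nearest start site, 13 members were bound (26.5%), against 20.1% of all genes.

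**Figure D1:**
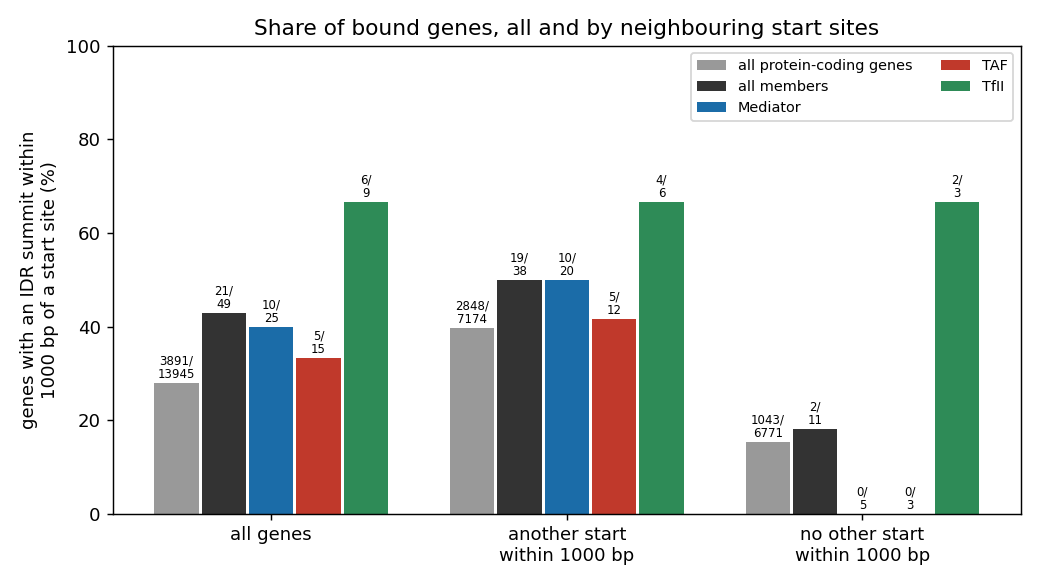
Bars give the percentage of genes with an IDR summit within 1000 bp of a start site, with the number of bound genes over the number of genes above each bar, for all protein-coding genes (grey), all members (black) and the MED, Taf and TfII genes (colours). The black bar stands at 42.9% against 27.9% on the left, at 50% against 39.7% among genes with a neighbouring start site, and at 18.2% against 15.4% among genes without one.

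Of the Mediator genes, the strongest peak was that of MED30, a subunit found in animals, at rank 151 of the pooled list (FBgn0035149, chromosome 3L, 654071 to 654436), with ranks of 168, 202 and 133 in replicates 1, 2 and 3. Its intergenic summit lay 201 bp upstream of MED30 and 73 bp from the start site of Rev1, a translesion DNA polymerase gene on the other side. MED27 followed at rank 265 (FBgn0037359, chromosome 3R, 5654832 to 5655178), with replicate ranks of 348, 421 and 157. The summit of MED27 was 166 bp upstream of it and 112 bp from the start of elm. MED15, a tail subunit that contacts activators, had rank 332 (FBgn0027592, chromosome 2L, 472333 to 472616) and close replicate ranks of 308, 367 and 324. That summit was 575 bp upstream of MED15 but 238 bp from the start of CG4297, so MED15 was no longer bound with a window of 500 bp. These 3 genes were among the first 500 entries of all 3 replicates, and none of their peaks lay nearest to the MED gene.

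MED4 and MED7, of the middle module, had peaks at ranks 712 and 999. For MED4 (FBgn0035754, chromosome 3L, 7250577 to 7250770) the replicate ranks were 622, 1126 and 591, and the summit lay 119 bp upstream, in an exon of asRNA:CR43470 and 6 bp from its start. For MED7 (FBgn0051390, chromosome 3R, 10760976 to 10761167) they were 1050, 1243 and 862, with an intergenic summit 53 bp upstream, shared with the condensin II gene Cap-H2. The head subunit gene MED6 (FBgn0024330, chromosome 3R, 9767741 to 9767910) ranked 1164, and 798, 1375 and 1519 in the replicates. Its summit lay 2 bp upstream of 1 of its 5 start sites and within the 5' UTR of a longer transcript of MED6. Naa80, with a start 19 bp from a start of MED6, shared this peak. MED16, a tail subunit gene (FBgn0034707, chromosome 2R, 22183024 to 22183197), ranked 1216, and 990, 1344 and 1395 in the replicates, with its summit 32 bp upstream. MED17, which is central to the head (FBgn0038578, chromosome 3R, 18188914 to 18189123), ranked 1755, and 2355, 2412 and 1113 in the replicates. Its summit was 50 bp upstream, while the strongest entry of replicate 1 lay at -301 bp. All 3 replicates placed these 5 genes well inside their first 5164 entries, the length of the IDR list. CG11170 and CG12321 also started within 1000 bp of the summits of MED16 and MED17, respectively.

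MED10 and MED23 lay close to the threshold. MED10, of the middle module, had pooled rank 4420, but ranks of 3605, 5627 and 7267 in the replicates, so that only replicate 1 had it among its first 5164. MED23, of the tail, had pooled rank 4874 and replicate ranks of 3478, 3943 and 8103. Its summit lay 93 bp inside the gene, in a coding exon, the sole bound member with a summit downstream of its nearest start site. PDCD-5 and Gmer also started within 1000 bp of the summits of MED10 and MED23, respectively. By module, 2 of 7 head genes (28.6%) and 3 of 9 middle genes (33.3%) were bound, both near the 27.9% of all genes. Of the tail 3 of 5 were bound, and 2 of the 3 genes MED27, MED28 and MED30, whose module is drawn differently between structures. With so few genes in each, no difference between modules is read from these counts. MED14, the scaffold that joins the modules, was not bound and had its strongest pooled entry at rank 22021, with ranks of 11061 and 14702 in replicates 1 and 3 and no entry in replicate 2.

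Of the 15 Mediator genes that were not bound, MED19 stood nearest to the threshold, at pooled rank 6260 and with replicate ranks of 4640, 5075 and 8079. Its summit fell on the start site itself, and replicates 1 and 2 each held it among their first 5164 entries. MED24 had pooled rank 7324 and replicate ranks of 6376, 9148 and 8661. Ranks between 7806 and 10095 were those of MED21, MED26, MED1, MED31 and MED8, in that order. Apart from MED14, weaker entries belonged to MED11 (16554), MED20 (17009), MED25 (18671), MED22 (19258), MED28 (22980) and MED9 (24270). MED18 had no pooled entry, with an entry at rank 15778 in replicate 1, one at 29777 in replicate 3 and none in replicate 2. The summit of MED20 lay 148 bp inside the gene, and the same entry served Trf, a gene of the TBP family that starts 47 bp away from it. A gene without an entry is below what a list of 30000 entries shows and is not known to be free of signal.

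**Figure D2:**
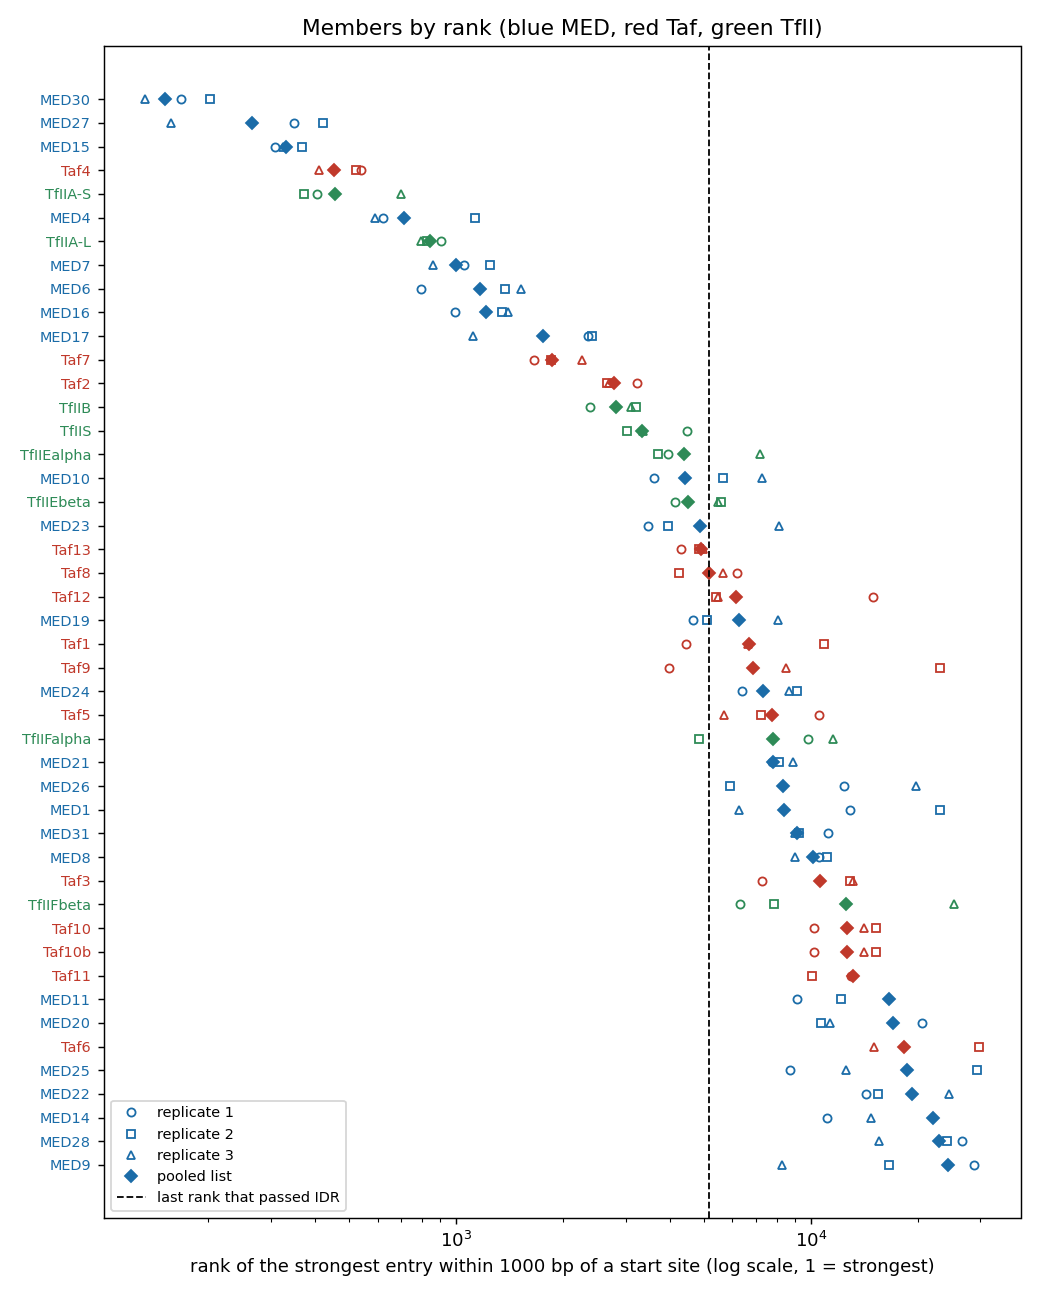
Rank of the strongest entry within 1000 bp of a start site (log scale) for the 46 members with a pooled entry, in the pooled list (filled) and in the 3 replicate lists (open), with the last rank that passed IDR as a dashed line. The spread of the replicate symbols differs from gene to gene on both sides of the line: it is wide for MED27 (157 to 421) and Taf9 (3977 to 23136), and narrow for TfIIA-L (796 to 908) and MED21 (7738 to 8917).

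Among the Taf genes, Taf4, the gene of a TFIID scaffold subunit that contacts activators, was the strongest at rank 453 (FBgn0010280, chromosome 3L, 16113558 to 16113785). Ranks of 540, 522 and 410 in replicates 1, 2 and 3 put it near the same place in each. The summit lay in an intron of Taf4, 123 bp upstream of an internal start site, and no other coding gene started within 1000 bp of it. Taf7 had rank 1865 (FBgn0024909, chromosome 3R, 7907290 to 7907705), and ranks of 1661, 1852 and 2267 in the replicates. Its summit, 140 bp upstream of a start site in an intron of Taf7, was 135 bp from the start of EMC1, a gene of the ER membrane protein complex. Taf2, which contacts the initiator of the core promoter, had pooled rank 2788. Its summit lay 47 bp upstream and 32 bp from the start of the calpain gene CalpB. Taf13 and Taf8 were the weakest bound members. Taf13 had pooled rank 4879, with 4309, 4846 and 4974 in the replicates, and its summit was nearer to nesd (41 bp) than to Taf13 (82 bp). Taf8 had pooled rank 5140 of the 5164 that passed, and ranks of 6193, 4256 and 5651 in the replicates, the first from an entry at -682 bp. Only replicate 2 had Taf8 among its first 5164 entries. Mvb12 also started within 1000 bp of the pooled summit of Taf8.

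The nearest member below the threshold was Taf12, at pooled rank 6135, with replicate ranks of 14915, 5391 and 5477. Its summit lay 47 bp upstream and 6 bp from the start of Ho, the heme oxygenase gene. Taf1, the gene of the largest TFIID subunit, had pooled rank 6668 and replicate ranks of 4437, 10842 and 6649. Taf9, whose product forms a histone-like pair with Taf6, had pooled rank 6865 and replicate ranks of 3977, 23136 and 8473. Replicate 1 thus held both Taf1 and Taf9 among its first 5164 entries, and the other replicates held neither. Taf5 (7770), Taf3 (10603), Taf11 (13135) and Taf6 (18261) ranked lower. The neighbouring genes Taf10 and Taf10b, whose start sites lie 45 bp apart, had the same entry at rank 12648, inside a coding exon of Taf10b. Taf12L, a homologue of Taf12, had no entry in the pooled list or in any replicate.

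Of the TfII genes, TfIIA-S, the small TFIIA subunit gene, ranked 455 (FBgn0013347, chromosome 3R, 23891002 to 23891243), and 405, 372 and 698 in the replicates. Its summit was intergenic, 56 bp upstream, and the only other start within 1000 bp of that of the gene was that of a transposon copy. TfIIA-L, the gene of the large subunit, ranked 843 (FBgn0011289, chromosome 3R, 27253159 to 27253344), and 908, 829 and 796 in the replicates. That summit lay in an intron of TfIIA-L, 197 bp from an internal start site and 51 bp from the start of pll, which encodes the kinase Pelle. The related gene TfIIA-S-2 had no entry in the pooled list or in the 3 replicates. TfIIB had pooled rank 2818, with 2375, 3214 and 3115 in the replicates, and a summit 356 bp upstream but 64 bp from the start of Bug22. TfIIS had pooled rank 3333, with 4466, 3034 and 3358 in the replicates. Its summit lay 840 bp upstream, 59 bp from the start of solo, which shares a locus with the germ line gene vas. Both TFIIE genes passed with weak peaks, TfIIEalpha at pooled rank 4372 and TfIIEbeta at 4512, with summits 60 bp and 3 bp upstream. TfIIEbeta ranked 4136, 5565 and 5475 in the replicates, and TfIIEalpha 3962, 3712 and 7167. The TFIIF genes were not bound, TfIIFalpha standing at pooled rank 7803 and TfIIFbeta at 12527. For TfIIFalpha, replicate 2 gave rank 4824, and replicates 1 and 3 gave 9786 and 11512.

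The second comparison asked how far the replicates held the same genes. Among as many of its strongest entries as the IDR list holds, replicate 1 had an entry near 23 members, replicate 2 near 21 and replicate 3 near 16, which gives 40.8% ± 7.36 of the 49 genes (SD, n = 3 replicates). For all protein-coding genes the share was 27.5% ± 0.612 (SD, n = 3), with 28.2%, 27.0% and 27.4% in the replicates, so the lower count of replicate 3 was not seen over all genes. By family the means were 38.7% ± 6.11 for the MED genes, 33.3% ± 6.67 for the Taf genes and 59.3% ± 12.8 for the TfII genes (SD, n = 3). For the members together the lowest replicate, at 32.7%, lay above the highest share of all genes, and for the Taf genes the lowest, at 26.7%, did not. Of the 21 bound members, 16 were in the first 5164 entries of all 3 replicates, 2 of 2 and 3 of only 1. The 5 were TfIIEalpha, MED23, MED10, TfIIEbeta and Taf8, with pooled ranks of 4372 to 5140, near the cut. None of the 5 was in the first 5164 of replicate 3. Over 49 genes a few such entries move the share more than over 13945 genes. Of the 28 members not bound, 24 were in the first 5164 of no replicate, 3 of 1, and MED19 of 2. The highest replicate rank was a median of 1.46 times the lowest for the 21 bound members (1.14 to 2.68, the last for MED27) and 1.85 times for the 21 others with an entry in every replicate (1.15 to 5.82, the last for Taf9). The IDR list was made from these replicates, so agreement on the bound genes is partly built into the call.

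**Figure D3:**
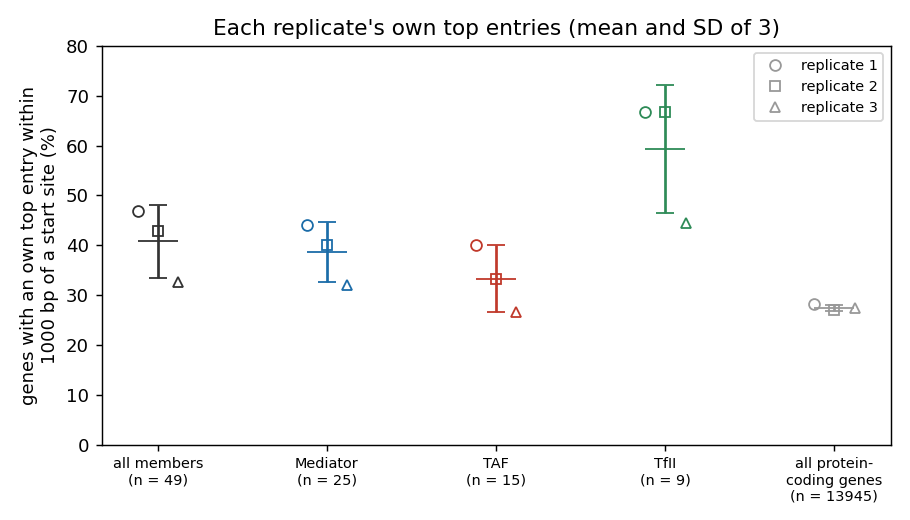
Percentage of genes with an entry among each replicate's own 5164 strongest within 1000 bp of a start site. Open symbols are the 3 replicates, bars their mean with the SD. All members range from 32.7% to 46.9%, above the 27.0% to 28.2% of all protein-coding genes, while the range of the Taf genes reaches down to 26.7%.

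The third comparison asked where the summits lay. Upstream of the nearest start site of the gene were 20 of the 21 summits of bound members (95.2%), against 83.1% of all bound protein-coding genes. For 16 of the 21 another coding start also lay within 1000 bp of the summit. The shares upstream were not computed apart for genes with and without a neighbouring start, so no trait of the members is read from them. Within 100 bp of a start site of the gene lay 12 of the 21 (57.1%), against 37.4%. The median absolute distance was 82 bp for the bound members and 144 bp for all bound genes. With windows of 500 and 2000 bp the members' median was 60 and 121 bp, and in the replicates' own top entries it was 106 to 124 bp. The median of all bound genes was not computed at these settings, so the 144 bp is no comparison for them. By annotation 15 summits were intergenic, 3 lay in introns (Taf4, Taf7 and TfIIA-L, each of the gene itself), and 1 each in a 5' UTR (MED6), a coding exon (MED23) and a non-coding exon (MED4). The position of the strongest entry moved by a median of 35 bp between replicates, and by at most 50 bp for 14 of the 21. The largest ranges were those of Taf8 (678 bp), MED17 (268 bp) and MED23 (179 bp), where a replicate had its strongest entry elsewhere in the window.

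**Figure D4:**
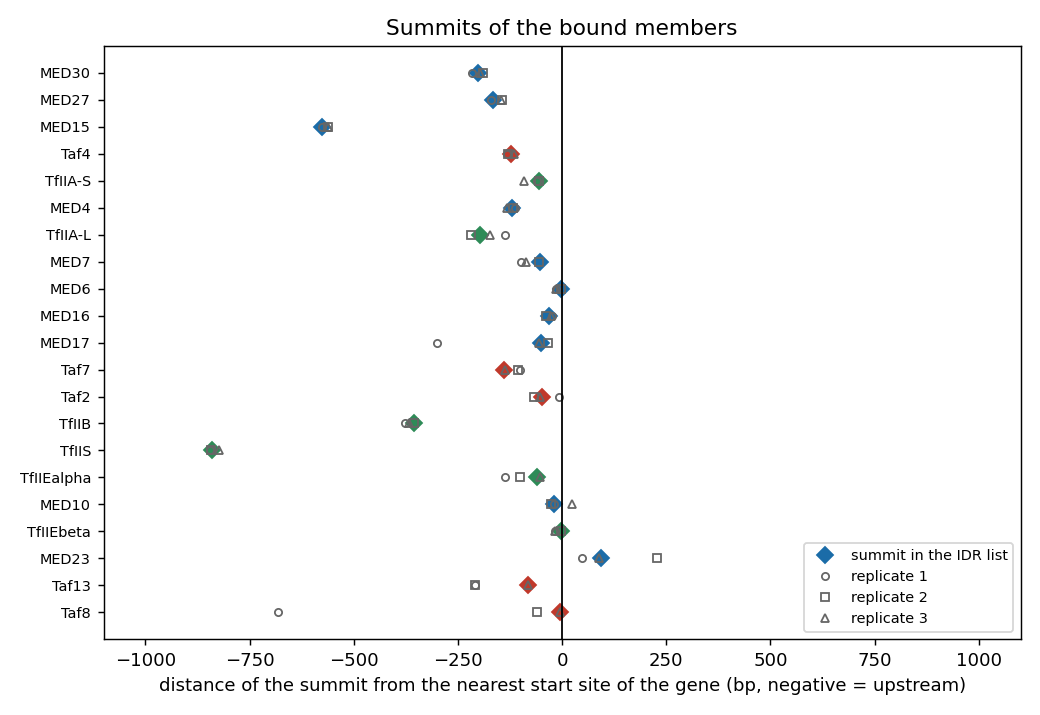
Distance of the summit from the nearest start site of the gene in bp, for the 21 bound members in order of rank, in the IDR list (filled, blue for MED, red for Taf and green for TfII genes) and as the strongest entry of each replicate (open, grey). All filled symbols but that of MED23 lie upstream, and MED15 (575 bp), TfIIB (356 bp) and TfIIS (840 bp) lie farthest from their start sites.

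The fourth comparison asked which short sequences the summits of the bound members hold, on either strand of the 101 bp around each. TATCGA was present at 4 of 21 summits (19.0%), those of MED27, MED17, TfIIS and Taf8. Of the 3187 IDR summits within 1000 bp of a coding start site 14.7% held it, as did 13.8% of windows centred on the 19252 coding start sites, so the members' share was near both. In flanking windows of the same length 400 bp away, it was in none of the 42 of the 21 summits. Of the 6374 such windows of the 3187 summits, 3.80% held it. In MED27 the match starts 21 bp to the left of the summit. In TfIIS the matches start 10 and 25 bp to the right of it, and in MED17 23 and 25 bp. In Taf8 it starts 1 bp to the right. The E-box form CACGTG was at no summit of a bound member (0.973% of the 3187 and 1.82% of start sites), and CACGCG at 1, that of TfIIA-S, at the edge of the window (2.48% and 3.60%). The N-box CACNAG, another Hes form, was at 2, those of MED7 and Taf8 (9.52%, against 12.6% and 12.9%). Of the other hexamers, ACACTG was at 3 (MED6, MED10 and TfIIEbeta, 14.3% against 11.3% and 9.68%), and the E-box CAGCTG at 1 (TfIIEbeta, against 6.59% and 8.77% of the same sites). Neither GAGAGA, the site of GAGA factor, nor CAGGTA, that of the early activator Zelda, was found at these summits, against 3.67% and 2.23% of the 3187 and 4.07% and 2.00% of start sites. None of the 8 sequences was at more than 4 of the 21 summits, and a missing match says only that these letters are not in the window.

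The rest of the initiation machinery, taken from lists made for this purpose, gave the following counts beside the 27.9% of all genes. Start sites of neighbouring genes were not examined for these lists, so which gene such a peak belongs to is not known. Of 10 TFIIH genes 8 were bound (80%). The strongest was Ssl1, whose peak at rank 6, with rank 7 in each replicate, lay at -204 bp. It was followed by mrn (rank 1504), known as Tfb2, and the helicase gene Xpd (rank 1619). The TFIIH genes hay and Mat1 had pooled ranks of 6740 and 5959, below the threshold. Of 15 genes of SAGA and related acetyltransferase complexes without a Taf symbol 9 were bound (60%), led by the acetyltransferase gene Gcn5 (rank 768), Ada3 (1248) and Ada2b (1767). RNA polymerase II subunit genes were bound in 5 of 12 cases (41.7%), with Polr2H (230), Polr2F (246) and Polr2B (866) at the top. The gene of its largest subunit, Polr2A, had an entry at rank 12929. Of the Mediator kinase module only skd was bound (rank 1816), with Cdk8 at 6784, CycC at 8786 and kto without a pooled entry though with ranks of 8620, 14818 and 21918 in the replicates, and the Mediator gene ix was bound at rank 5146. No gene of the TBP family was bound, with pooled ranks of 7125 for Trf2, 13573 for Tbp and 17009 for Trf. None of the 4 testis-specific homologues of Tafs was bound, and the highest of them, mia, had rank 19373.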

How the data were processed

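ChIP-seq peak lists of 3 biological replicates of 1 group were used. Per the deposited lists of files, the authors made peaks and background regions for IDR from the alignment of each replicate, and from all 3 pooled, together with a file that also entered their control-normalized signal. The IDR list came from these 4 lists. Neither an aligner nor a peak caller is named in the sources used here. Per the labels, chromatin was sonicated to 200 to 800 bp. Column 7 of the deposited lists is the signal value of a region (36.7 to 4591 in the pooled list) and served only to rank entries within a list. Column 10 as deposited is no signal but another quantity, the offset of the summit in bp from where its region starts. All 5164 entries of the IDR list are the strongest pooled entries. The depth of the libraries is unknown.

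Start sites came from the Ensembl annotation (release 115) of genome release 6, the dm6 build of the lists. All entries lay within the arm lengths of the NCBI sequence. Genes within 1000 bp of a summit were counted in Python 3.11.15, after the counting was tested on placed summits. The counts of bound genes and of summits upstream, near or nearest to the start site were set beside the same share over all protein-coding genes, with no set test. The summit classes, the count of summits near another coding start and the tallies of bound members over replicates are descriptions of the members alone. Of 66 list symbols, 50 matched by symbol and 1 by synonym, 11 repeated a gene, 1 was a member and 3 matched none. A further symbol, of an SF3b protein, was left out, since it matched another gene. All members were accounted for, with replicate ranks for at least the 12 strongest bound, the 3 weakest bound and the 5 strongest not bound, and up to 3 genes per other list. Some other genes were chosen for naming with their values in view. The members and lists were chosen with earlier results of these data known. Alternatives changed the window, peak set, annotation, assignment and replicates.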

Additional observations from a re-analysis of the deposited data

How the results depend on the processing

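Of 106 recomputed values 70 stayed within 1.5 times the reported count or, for medians, within the SD over replicates. The 106 include sequence counts in flanks 400 bp away, which are other windows. Counts of bound genes were compared as numbers, also where fewer genes were left. The 70 is therefore no measure of stability. The NCBI annotation gave the same 21 bound members. For each replicate in turn, IDR peaks were kept only if matched within 150 bp in the first 5164 entries of both other replicates. This filter gave 16 to 18 bound members (32.7% to 36.7%), of them 8 to 9 MED, 4 Taf and 4 to 5 TfII genes. Of all genes it gave 3111 to 3187 (22.3% to 22.9%). MED10, Taf8 and TfIIEbeta were lost each time, and MED23 and TfIIEalpha when replicate 1 or replicate 2 was set aside. The IDR list itself still rested on all 3 replicates, so the counts could only fall. The losses repeat the tally of bound members over replicates and are no separate check of it. With the strongest 2582 entries of the IDR list 12 members (24.5%) and 2269 of all genes (16.3%) were bound. Of the families, 2 of 15 Taf genes (13.3%) and 2 of 9 TfII genes (22.2%) were bound at this setting. The first 10000 pooled entries gave 32 members (65.3%), with 16 MED (64%) and 9 Taf genes (60%), against 41.4% of all genes. A window of 2000 bp gave 8 of 15 Taf genes (53.3%), adding Taf10, Taf10b and Taf12, against 33.0% of all genes. With 250 bp the Taf share was 33.3% against 20.2% of all genes. How near the Taf share lay to that of all genes thus depended on the window. The nearest start site only gave 13 members (26.5%, 2 of them Taf), against 20.1% of all genes. Without genes that have a neighbouring start, 2 of 11 members (18.2%, with 0 MED, 0 Taf and 2 TfII) were bound. Of all genes 1043 of 6771 (15.4%) were. In replicate 3's own list the median rank was 8079. The median distance of 82 bp became 60 and 121 bp with windows of 500 and 2000 bp, and 114, 106 and 124 bp in replicates 1, 2 and 3. Within 100 bp of the summit CACNAG was at 5, CAGCTG at 2, GAGAGA at 1, ACACTG at 6 and CAGGTA at 1 of the 21. In that order, these are 23.8%, 9.52%, 4.76%, 28.6% and 4.76%. Of the 3187 IDR summits within 1000 bp of a coding start site, 23.1%, 13.3%, 8.85%, 20.6% and 3.98% held them. In left and right flanks TATCGA was at 0 and 0, CACGTG at 1 and 2, GAGAGA at 1 and 1; CACGCG was at 0 on the left, and on the right CACNAG was at 4, ACACTG at 0 and CAGGTA at 1. The causes of these shifts were not tested beyond the settings themselves. No paired analysis was possible because there is 1 group. Unknown depth limits what can be said of genes without an entry.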

Other observations

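Outside the RNA polymerase II machinery, both genes listed for the initiation of RNA polymerase III transcription had stronger peaks than most of the members. That list held only these 2 genes, beside 27.9% of all protein-coding genes bound, and was chosen with earlier results known. Nothing is therefore read from it about that machinery as a whole. Start sites of genes next to Bdp1 and Brf were not examined, so which gene each peak belongs to is not known. Bdp1 had pooled rank 67, with ranks of 79, 61 and 67 in replicates 1, 2 and 3 and a summit at -61 bp from its start site. Brf had pooled rank 182, with 144, 169 and 254 in the replicates and a summit at -114 bp. MED30, at rank 151, was the only member between them, and no member ranked above Bdp1. Polr2D and Ada2a had the same entry, at pooled rank 5934, and its rank differed between replicates, at 12585, 8867 and 4933.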
